A study of Mus musculus with 30 samples.

Results

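The mouse mitochondrial genome is a small circular DNA that carries 37 genes in the reference annotation: 13 protein genes, 2 ribosomal RNAs (rRNAs) and 22 transfer RNAs (tRNAs). The members were taken as all genes of the deposited count table whose symbol begins with mt-. Of the 37, 23 had counts, among the 35120 genes of the table: the 13 protein genes, both rRNAs and 8 tRNAs (mt-Tq, mt-Tw, mt-Ta, mt-Ty, mt-Ts1, mt-Te, mt-Tt and mt-Tp). The other 14 tRNAs were not analysed here.

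The libraries are strand-specific mRNA sequencing of white fat from mice labelled Ctnnb1AdKO, read here as a knockout of the β-catenin gene in adipocytes, and from Ctnnb1fl/fl controls matched for sex and age. Fat was digested with collagenase and spun, so that floating adipocytes were parted from the pelleted stromal-vascular cells (SVC), which are the other cells of the tissue, among them preadipocytes, blood vessel cells and macrophages. Adipocytes were sequenced from 6 female knockout, 6 female control, 5 male knockout and 6 male control libraries. SVC came from 4 male knockout and 3 male control libraries, which makes 30 in all. Every group carries the floxed Ctnnb1 allele, and the comparisons ask how its deletion in fat cells alters the transcriptome. The labels name both the epididymal and the posterior subcutaneous depot for each library, female ones included, and give neither the driver of the deletion nor the ages. Replicate numbers are not stated to be separate mice, so the p-values measure the spread between these libraries, which may in part be technical.

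Libraries held 20484836 to 22209603 counts. Adipoq, a hormone made by fat cells, lay between 3631 and 6715 counts per 1000000 of the library total (CPM) in the adipocyte libraries and between 8.96 and 156.3 CPM in SVC. Xist and Ddx3y matched the labelled sex in all libraries. Ctnnb1 counts were close in both genotypes, with means of 329.3 ± 30.5 CPM against 320.2 ± 22.6 CPM in controls (SD, n = 6 each) in female adipocytes, and 328.3 ± 23.2 CPM (n = 5) against 326.4 ± 11.7 CPM (n = 6) in male adipocytes. The exons removed are not named in the labels, so whether a count over the whole gene can see the deletion is not known, and the genotypes rest on the labels.

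The 13 proteins are core subunits of the respiratory chain, the inner-membrane complexes that oxidise NADH and drive the making of ATP. They comprise subunits of complex I (mt-Nd1 to mt-Nd6 and mt-Nd4l), cytochrome b of complex III (mt-Cytb), the core of cytochrome c oxidase or complex IV (mt-Co1, mt-Co2 and mt-Co3), and subunits of ATP synthase or complex V (mt-Atp6 and mt-Atp8). They are translated inside the organelle on ribosomes built around mt-Rnr1 and mt-Rnr2. All other subunits, and the proteins that copy, transcribe and translate this genome, come from nuclear genes. Both strands are transcribed as long precursors, and tRNAs set between the other genes mark where the precursors are cut. In white fat the respiratory chain serves lipid and glucose metabolism, and in brown and beige fat it also feeds heat production through the uncoupling protein Ucp1.

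The genes lie so close that several share bases, which bears on how reads can be assigned. In the GENCODE M21 transcripts (build GRCm38), mt-Atp8 has 204 bases and its last 43 are also the start of mt-Atp6, and mt-Nd4l has 297 bases and shares its last 7 with mt-Nd4. The mt-Atp8 sequence is shown whole, with the shared bases in capitals.
mt-Atp8: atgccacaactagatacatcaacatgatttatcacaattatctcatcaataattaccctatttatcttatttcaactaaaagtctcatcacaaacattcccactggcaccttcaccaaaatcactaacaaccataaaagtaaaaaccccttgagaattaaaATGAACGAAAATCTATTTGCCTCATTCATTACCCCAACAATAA
The genes mt-Co3, mt-Nd4 and mt-Cytb end without a full stop codon, with 1 base past the last whole codon. Poly(A) addition is known to complete such stop codons. Their last 30 bases are shown with that base in capitals.
mt-Co3: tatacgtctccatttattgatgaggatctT
mt-Nd4: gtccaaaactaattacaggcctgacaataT
mt-Cytb: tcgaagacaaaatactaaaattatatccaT

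A nuclear segment on chromosome 1 is nearly the same as part of the mitochondrial genome, which bears on how far reads can be assigned to some members. Against the same transcripts, Gm28661 matched 681 of the 684 bases of mt-Co2 without a mismatch, Gm10925 matched 678 of the 681 bases of mt-Atp6, and Gm28437 matched 783 of the 784 bases of mt-Co3. Gm10222 matched 294 of the 297 bases of mt-Nd4l, also at 100% identity, and Gm28439 the first 876 of the 1378 bases of mt-Nd4. Gm29216 covered the last 483 of the 1545 bases of mt-Co1 with 1 mismatch. Gm28438 matched 345 of the 348 bases of mt-Nd3 with 1 mismatch, T3C (the base in mt-Nd3, its position counted from 1 at the 5′ end of the gene, and the base in the copy). The first 60 bases of both are given to show how little tells them apart, with the differing base in capitals.
mt-Nd3: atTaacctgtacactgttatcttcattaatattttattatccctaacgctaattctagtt
Gm28438: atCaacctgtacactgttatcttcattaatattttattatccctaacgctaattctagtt
Over all libraries mt-Co1 had 9584259 counts, mt-Cytb 4165406, mt-Nd1 2214145, mt-Nd4 1476003, mt-Nd2 1462634 and mt-Nd5 1328569. In contrast, mt-Co2 had 2865, mt-Co3 2102, mt-Atp6 1837, mt-Nd4l 440, mt-Nd3 317 and mt-Atp8 70. The nuclear copies of the first 3 of these had more: 3477 for Gm28661, 3334 for Gm28437 and 4024 for Gm10925. Gm28438 had 352 and Gm10222 211. The protein genes with a copy of at least 99% identity over nearly their whole length were thus those with few counts, besides mt-Atp8, which lies between mt-Co2 and mt-Atp6. How the authors' counting treated reads that map to several places is not given in the sources used here, and its part in the low counts was not tested. Values of mt-Co2, mt-Atp6, mt-Atp8, mt-Co3, mt-Nd3 and mt-Nd4l are therefore uncertain as levels. To a lesser extent so are those of mt-Nd4 and mt-Co1, with copies over 876 of 1378 and 483 of 1545 bases.

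**Figure D1:**
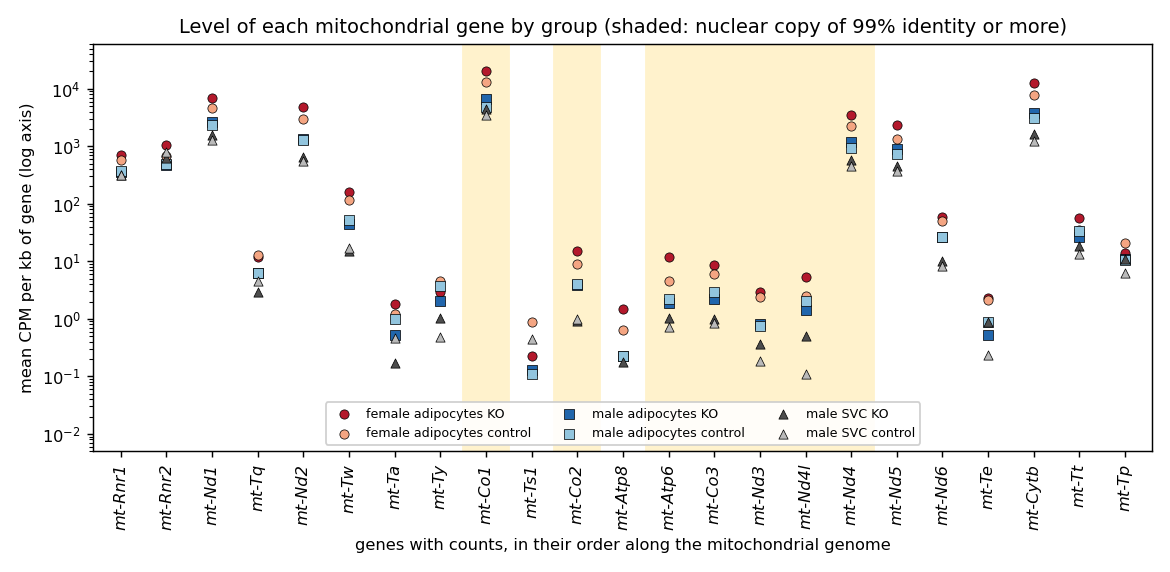
Mean CPM per kilobase of gene (log axis) for the 23 mitochondrial genes with counts, in their order along the genome, in the 6 groups; shading marks genes with a nuclear copy of 99% identity or more over at least part of their length, and a mean of 0 is not drawn. The 6 groups lie between 3527 and 20258 at mt-Co1, and at or below 15.1 at mt-Co2, mt-Atp6, mt-Co3, mt-Nd3 and mt-Nd4l.

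Per kilobase of full gene length, the level of mt-Co1 was the highest in every group. The places of mt-Nd4 and mt-Co1 in such an order are uncertain, because nuclear copies match part of each gene. In female control adipocytes it was 12868 CPM per kilobase, followed by mt-Cytb at 7878, mt-Nd1 at 4679, mt-Nd2 at 2936, mt-Nd4 at 2292 and mt-Nd5 at 1342. The rRNAs came next, with 690.6 CPM per kilobase for mt-Rnr2 and 586.8 for mt-Rnr1, both from libraries labelled as mRNA. In male control adipocytes the order of the first 6 was the same, from 4795 for mt-Co1 and 3042 for mt-Cytb to 736.6 for mt-Nd5. In SVC controls mt-Rnr2, at 784.0 CPM per kilobase, stood above mt-Nd2 at 555.1, mt-Nd4 at 447.8 and mt-Nd5 at 370.2.

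The only protein gene read from the other strand is mt-Nd6, a membrane subunit of complex I that overlaps mt-Nd5 by 14 bases at their ends. It had 10.06 ± 3.80 counts for every 1000 of mt-Nd5 in female controls, 7.42 ± 2.13 in female knockouts (SD, n = 6 each), 10.14 ± 3.45 in male controls (n = 6) and 8.43 ± 1.87 in male knockouts (n = 5), ranges that overlapped within each sex. Whether the counting used strand is not given in the sources used here, so reads of the opposite precursor cannot be told apart from those of mt-Nd6 or of the tRNAs mt-Tq, mt-Ta, mt-Ty, mt-Ts1, mt-Te and mt-Tp, which lie on the same strand as mt-Nd6.

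The tRNAs were at the edge of detection. The most counted was mt-Tw, with 3374 counts over all libraries, then mt-Tt with 1443, mt-Tp with 564 and mt-Tq with 375, while mt-Ty, mt-Te, mt-Ta and mt-Ts1 had between 14 and 121. Each is 67 to 71 bases long. The 3 with the most counts are shown because they carried the values described further on. mt-Tw follows mt-Nd2, mt-Tt follows mt-Cytb, and mt-Tp lies last, on the other strand.
mt-Tw: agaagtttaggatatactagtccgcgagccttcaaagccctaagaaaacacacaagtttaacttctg
mt-Tt: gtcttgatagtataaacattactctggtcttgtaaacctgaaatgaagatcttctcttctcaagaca
mt-Tp: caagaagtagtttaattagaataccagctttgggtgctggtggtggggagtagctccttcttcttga

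Mitochondrial genes together took up between 0.942% and 8.12% of the counts of a library. In female adipocytes the 6 knockout libraries stood at 7.32%, 6.69%, 8.12%, 7.12%, 5.92% and 6.08%, and the 6 controls at 5.19%, 4.73%, 4.28%, 3.96%, 3.49% and 4.58%. All knockouts were above all controls, a ratio of means of 1.57. In male adipocytes the knockouts stood at 2.73%, 2.89%, 1.99%, 2.27% and 1.51% and the controls between 1.68% and 2.08%, with a median of 1.79%. Here 3 knockouts were above all controls, 1 among them and 1, knockout 5, below all of them. The SVC knockouts stood at 1.48%, 1.53%, 1.61% and 0.942%, and the SVC controls at 1.09%, 1.15% and 1.21%, so that 3 knockouts were above and knockout 4 below the controls. The ratio of the female to the male control mean was 2.39. Counting error is small beside this spread, with 95% Wilson intervals of at most 0.0117 percentage points to either side. Such intervals cover counting error only. In bulk libraries, a change in the share of 1 cell type and a change in RNA per cell cannot be told apart.

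**Figure D2:**
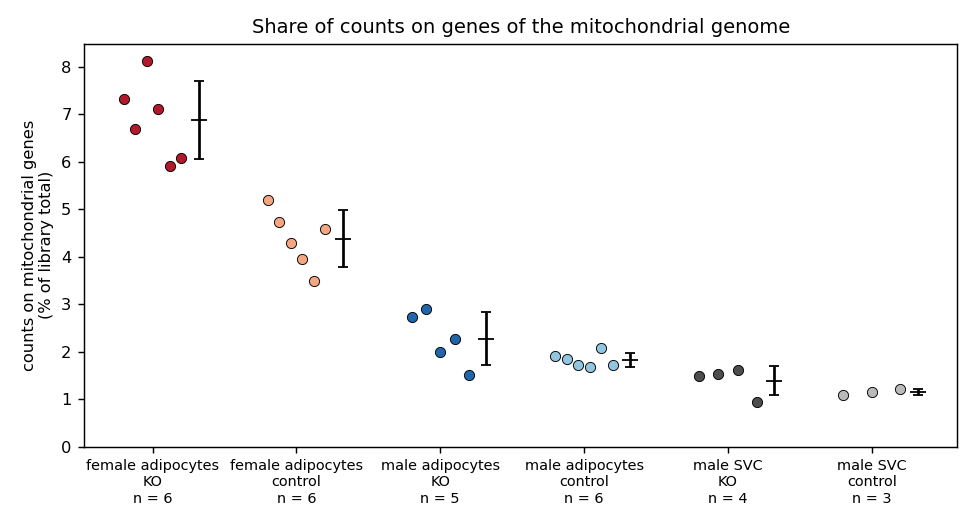
Share of counts on mitochondrial genes in each library (points, % of the library total), with the mean and SD of each group beside the points. The 6 female knockout libraries lie between 5.92% and 8.12%, above the female controls at 3.49% to 5.19%, while the male and SVC groups overlap between genotypes.

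The make-up of these counts was nearly alike in both genotypes of female adipocytes. There, mt-Co1 made up 45.6 ± 2.46% of mitochondrial counts in knockouts and 45.7 ± 1.91% in controls (SD, n = 6 each), mt-Cytb 20.8% and 20.5%, mt-Nd1 9.79% and 10.2%, and mt-Nd5 6.14% and 5.62%, all as group means. Their ranges overlapped. In male adipocytes the means lay further apart: mt-Co1 made up 44.2 ± 2.44% in knockouts (n = 5) and 40.6 ± 0.906% in controls (n = 6), and the rRNAs 4.59 ± 0.784% and 6.19 ± 0.987%. These ranges overlapped as well, at 41.0% to 47.0% against 39.6% to 42.1% for mt-Co1 and 3.29% to 5.17% against 5.07% to 7.42% for the rRNAs. In SVC the rRNAs held more, 9.45 ± 1.75% in knockouts (n = 4) and 13.3 ± 4.67% in controls (n = 3). These parts of a whole are described without a test.

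**Figure D3:**
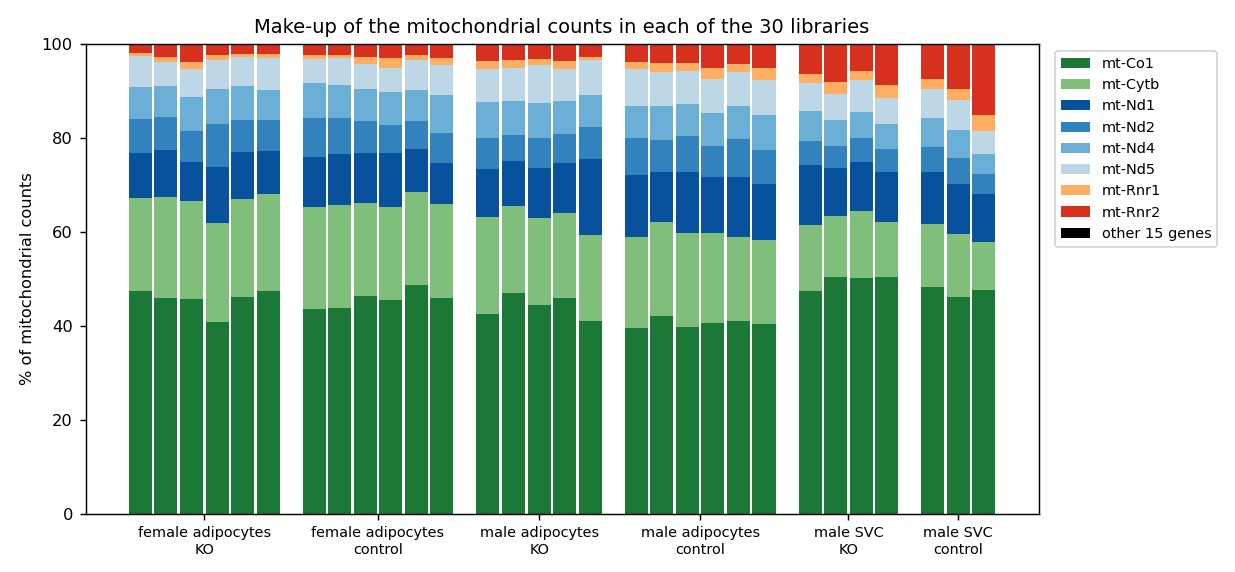
Share of each gene in the mitochondrial counts of each of the 30 libraries (stacked bars, % of mitochondrial counts), by group in replicate order; the 15 genes not named in the key are too few in counts to be seen. The mt-Co1 part stays between 39.6% and 50.4% in all libraries, and the rRNA part is widest in SVC controls, up to 18.5%.

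The effect of the knockout in female adipocytes was tested with the 4 adipocyte groups in 1 fit (edgeR quasi-likelihood test with TMM scaling, p-values adjusted by Benjamini-Hochberg over the 14227 genes tested, a gene being called below 0.05). Of the 23 members, 18 passed the filter on low counts, and mt-Atp8, mt-Ta, mt-Ty, mt-Ts1 and mt-Te did not. Higher in knockouts were 7 of the 18: mt-Nd1, mt-Nd2, mt-Nd4 and mt-Nd5 of complex I, mt-Cytb, mt-Co1 and mt-Atp6, all protein genes. None was called lower. Over all genes, 0.323% were called higher. Of the 18, 16 had a positive log2 fold change and their median was 0.68, beside 0.01 over all genes tested. Members whose libraries did not overlap, with all knockouts above all controls, were mt-Nd5, mt-Cytb, mt-Co1 and mt-Co3, 4 of 18 beside 0.295% of all genes.

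Complex I held the firmest member. In knockouts mt-Nd5, a proton-pumping subunit, had 3423 CPM at the lowest, 4219 at the median and 4930 at the highest, and in controls 1991, 2449 and 2921. The groups did not overlap, and the log2 fold change was 0.85 ± 0.14 (SE, edgeR adjusted p = 0.00383). It was called under all alternatives that were run.

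The subunit mt-Nd1, which sits where quinone binds, ranged from 5499 to 8426 CPM with a median of 6780 in knockouts, and from 3157 to 5561 with a median of 4553 in controls. Only the lowest knockout fell below the highest control. Its log2 fold change was 0.66 ± 0.12 (edgeR adjusted p = 0.0123), and the call was lost only when the female libraries were fitted without the male ones (adjusted p = 0.102).

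mt-Nd2 and mt-Nd4 are further proton-pumping subunits. mt-Nd2 lay between 4090 and 6592 CPM (median 5010) in knockouts and between 2104 and 4270 (median 2911) in controls, with 2 knockouts below the highest control. The log2 fold change was 0.79 ± 0.16 (edgeR adjusted p = 0.0208). The call was lost without control 3 (adjusted p = 0.0601), control 4 (0.0654) or knockout 1 (0.0628), and with the female libraries fitted alone (0.118). mt-Nd4 lay between 3862 and 5902 CPM (median 4706) in knockouts and between 2301 and 3900 (median 3118) in controls, with 1 knockout below the highest control. At a log2 fold change of 0.67 ± 0.15 it was just called (edgeR adjusted p = 0.0466), and it passed in 13 of 33 alternatives, with adjusted p-values from 0.00319 to 0.135. Of the female libraries left out in turn, the call held only without control 1 (0.0441), control 6 (0.0323) or knockout 6 (0.0276).

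Of the other subunits of complex I, mt-Nd6 had a log2 fold change of 0.36 ± 0.29 (edgeR adjusted p = 0.734), mt-Nd3 of 0.38 ± 0.29 (0.695) and mt-Nd4l of 1.19 ± 0.49 (0.385). None passed, and mt-Nd3 rested on 12 to 32 counts a library and mt-Nd4l on 6 to 47.

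Cytochrome b, which passes electrons on within complex III, is the only member of that complex encoded here. mt-Cytb had 12388 CPM at the lowest, 14417 at the median and 16910 at the highest in knockouts, and 6884, 8846 and 11357 in controls. The groups did not overlap, and the log2 fold change was 0.74 ± 0.14 (edgeR adjusted p = 0.0154). As for mt-Nd1, the call was lost only with the female libraries fitted alone (0.0512).

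In complex IV the most abundant member, mt-Co1, the subunit that binds oxygen, had 27310, 29925 and 37067 CPM as lowest, median and highest in knockouts and 17033, 20302 and 22587 in controls. Again no library overlapped. The log2 fold change was 0.73 ± 0.14 (edgeR adjusted p = 0.0155), and the call was lost without knockout 1 (0.0530). The other members of complex IV, mt-Co2 and mt-Co3, have near-identical nuclear copies and few counts, as described above. mt-Co3 had 5.90 to 7.52 CPM in knockouts (median 7.02) and 3.94 to 5.68 in controls (median 4.68), without overlap but not called (log2 0.60 ± 0.16, edgeR adjusted p = 0.0937). mt-Co2 lay between 7.52 and 15.7 CPM (median 9.43) in knockouts and between 4.19 and 9.44 (median 5.63) in controls (log2 0.83 ± 0.21, edgeR adjusted p = 0.0879). DESeq2 called both (adjusted p = 0.00906 for mt-Co3 and 0.0182 for mt-Co2).

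The ATP synthase subunit mt-Atp6, part of the proton channel, had the largest fold of the called members and the least even values. The knockouts had 5.34, 7.05, 4.51, 17.9, 4.02 and 9.14 CPM and the controls 4.51, 2.71, 2.31, 2.32, 3.13 and 3.26, on 50 to 377 counts a library. Knockout 4 was far above the rest, and 1 knockout lay below the highest control. The log2 fold change was 1.43 ± 0.29 (edgeR adjusted p = 0.0228). Without knockout 4 it was 1.07 and no longer called (0.0524), and the call was also lost without control 3 (0.0805) or control 4 (0.0726), with the replicate numbers as a block (0.13) and with the female libraries fitted alone (0.146). The nuclear copy Gm10925, identical to mt-Atp6 over 678 of 681 bases, had 4024 counts over all libraries against 1837 for mt-Atp6. How reads were shared between the 2 is not known, so the fold of mt-Atp6 is uncertain as well. The partner subunit mt-Atp8 had 0.142 to 0.423 CPM in knockouts and 0 to 0.233 in controls and was not tested.

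Neither rRNA was called. mt-Rnr2, the large ribosomal RNA, had 1178 CPM at the lowest, 1445 at the median and 3064 at the highest in knockouts, and 819.9, 1123 and 1310 in controls (log2 0.69 ± 0.21, edgeR adjusted p = 0.175). mt-Rnr1, the small one, had 398.4, 622.4 and 1192 CPM in knockouts and 369.5, 542.7 and 840.0 in controls (log2 0.34 ± 0.29, adjusted p = 0.739). Both were highest in knockout 3, and the groups overlapped. Among the tRNAs, mt-Tt had a log2 fold change of 0.72 ± 0.19 (adjusted p = 0.0945), mt-Tw of 0.56 ± 0.25 (0.441), mt-Tq of -0.03 ± 0.50 (0.992) and mt-Tp of -0.49 ± 0.31 (0.62), and none passed. All 6 knockout libraries of mt-Tp, at 0.664 to 1.17 CPM, were below the control mean of 1.40 CPM, on 8 to 50 counts a library over both groups.

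**Figure D4:**
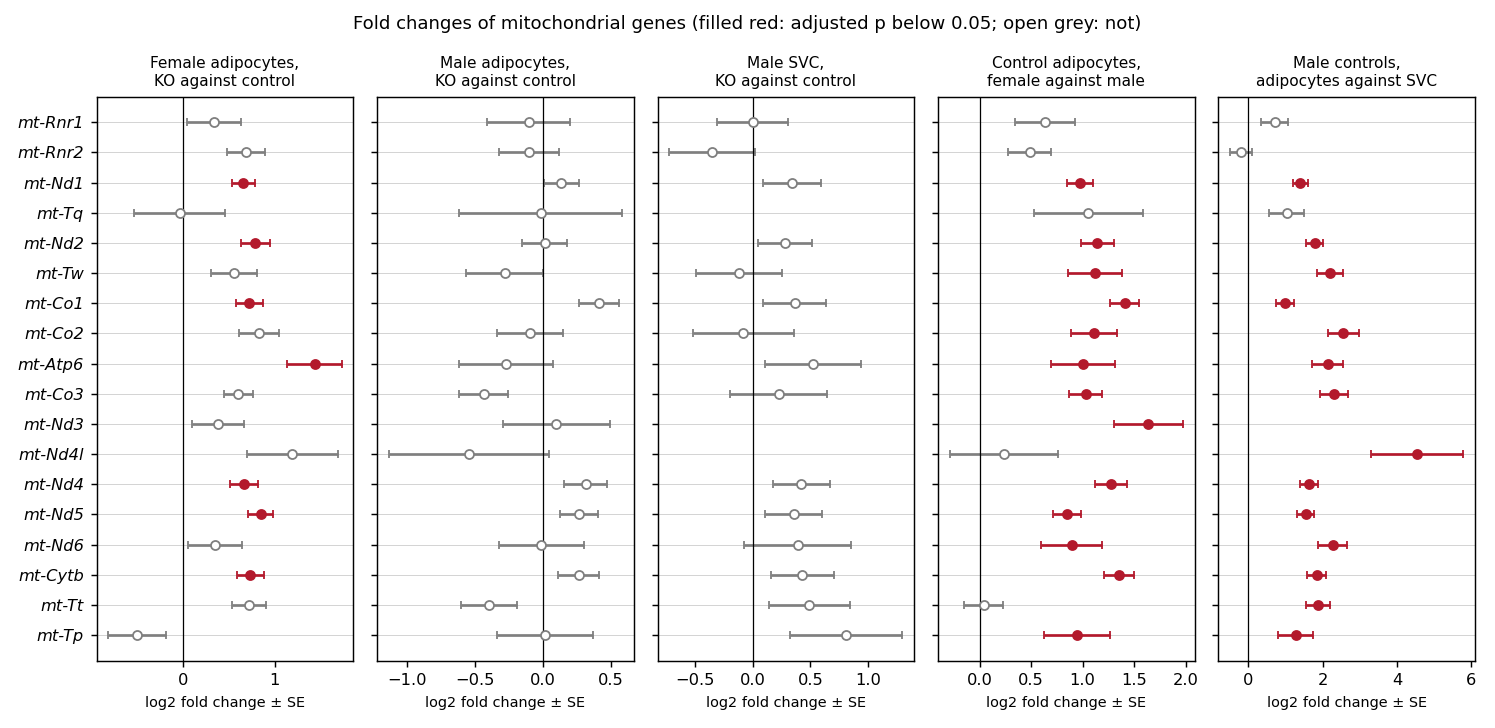
Log2 fold change ± SE (edgeR) of the mitochondrial genes that passed the filter, in genome order, in 5 comparisons, each with its own horizontal scale; filled red points have an adjusted p below 0.05. In female adipocytes 7 genes are filled and mt-Tp and mt-Tq lie below 0, in male adipocytes and SVC none is filled, and between sexes and fractions 13 and 14 are, mt-Nd4l between fractions on 2 SVC counts.

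The nuclear copies, in sum, had higher counts in female knockouts too. Summed over the 11 found at 95% identity or more, on chromosomes 1, 2 and 13, they had 80.4 ± 6.88 CPM in female knockouts and 51.1 ± 9.90 CPM in female controls (SD, n = 6 each), with ranges of 73.4 to 92.7 and 39.3 to 66.0 CPM. In the edgeR fit Gm10222 (log2 1.91, adjusted p = 0.0123), Gm10925 (0.86, 0.0360) and Gm28439 (0.90, 0.0472) were called higher, 3 of 10 copies tested, beside 0.323% of all genes. Whether their reads come from the nucleus or from mitochondria was not tested. With the counts of the copies of 99% identity or more added to their mitochondrial genes, a choice made after seeing the data, 7 members were again called. In male adipocytes the copies summed to 22.6 ± 8.11 CPM in knockouts (n = 5) and 22.3 ± 5.04 CPM in controls (n = 6). There 3 of 10 had a positive log2 fold change and none was called.

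Of the nuclear genes of the respiratory chain none was called in female knockouts, beside 0.471% of all genes called in either direction. At that share, lists this short can be expected to hold few calls or none. Tested were 36 nuclear subunits of complex I, 4 of complex II, 9 of complex III, 14 of complex IV and 16 of complex V. Their median log2 fold changes were 0.09, 0.15, 0.20, 0.18 and 0.07, beside 0.01 over all genes tested. In the same order, 28, 4, 9, 14 and 14 of them had a positive log2 fold change. The members of smallest p in complexes I and IV were Ndufs1, an iron-sulphur subunit of complex I (log2 0.32 ± 0.14, edgeR adjusted p = 0.392), and Cox7a1, a complex IV subunit found in muscle and brown fat (1.38 ± 0.39, 0.139). Summed, these nuclear subunits had 20227 ± 1852 CPM in knockouts and 19297 ± 2182 CPM in controls, a ratio of 1.05, and the groups overlapped. Whether the mitochondrial genes rose more than these lists was not tested.

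For the genes that act on the mitochondrial genome, the counts of calls stand beside the same 0.471% of all genes. That share is too low for short lists to hold many calls. Of 77 proteins of the mitochondrial ribosome none was called (median log2 0.01), of 10 factors of mitochondrial transcription none (0.11), of 14 of its replication none (-0.03) and of 26 of RNA processing and stability none (0.08). Tfam, which packs and activates mitochondrial DNA, had 22.1 ± 1.61 CPM in female knockouts and 23.9 ± 1.76 CPM in controls, and Polrmt, the RNA polymerase, 16.0 ± 3.05 and 13.7 ± 2.69 CPM (SD, n = 6 each). Among 12 regulators of mitochondrial biogenesis 1 was called, the coactivator Ppargc1a, at 6.22 ± 2.05 and 2.77 ± 1.18 CPM (log2 1.22 ± 0.24, edgeR adjusted p = 0.0143). Of 16 genes of the mitochondrial stress response none was called, and the one of smallest p was Atf4, a transcription factor of that response (log2 -0.36 ± 0.09, adjusted p = 0.0879).

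**Figure D5:**
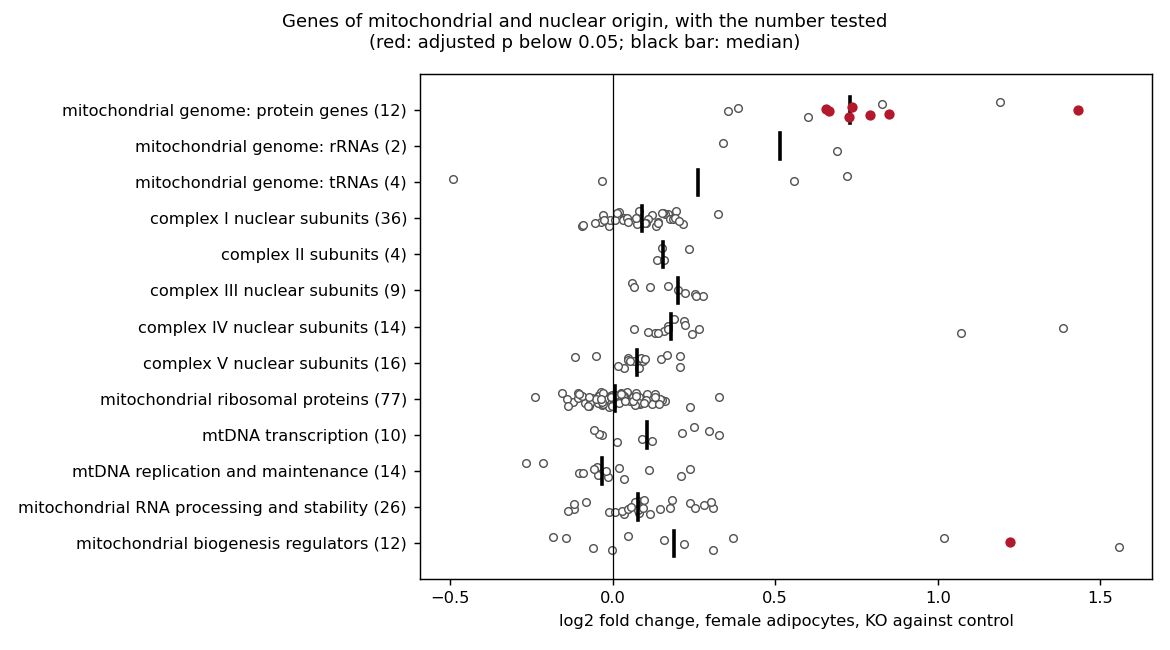
Log2 fold change in female adipocytes, knockout against control, of each tested gene of the mitochondrial genome and of the lists of nuclear genes for the respiratory chain and for mitochondrial ribosomes, DNA and RNA; red points have an adjusted p below 0.05 and black bars are medians. The mitochondrial protein genes have a median of 0.73 and 7 red points, and the only red point among the nuclear lists drawn is Ppargc1a.

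Genes of brown and beige fat moved in the same libraries. Their list had 4 of 14 members called higher in female knockouts, beside 0.323% of all genes. Among them were Cidea (log2 2.01 ± 0.44, edgeR adjusted p = 0.0364), Otop1 (2.09 ± 0.46, 0.0409) and Ppargc1a. Summed, the list had 256.5 to 443.1 CPM in knockouts and 96.0 to 217.9 CPM in controls, and Ucp1 alone 27.2 to 143.9 and 3.22 to 72.4 CPM. Its part in the higher mitochondrial counts was not tested. Of the markers of macrophages, skeletal muscle, mesothelium and adipocytes none was called higher, beside the same 0.323% of all genes. The summed macrophage markers were 261.7 to 551.2 CPM in knockouts and 457.4 to 875.3 in controls. Of the 16, 1 was called, C1qc, lower by 1.19 on the log2 scale (edgeR adjusted p = 0.0376), beside 0.148% of all genes called lower. Skeletal muscle markers, a tissue rich in mitochondria, had 58.6 to 201.3 CPM in knockouts and 77.9 to 273.5 in controls, with Ckm at no more than 0.0474 CPM in knockouts. Mesothelial markers had 8.73 to 21.0 and 9.98 to 105.2 CPM, and the 12 adipocyte markers together 47235 to 60468 and 51445 to 74885 CPM.

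In male adipocytes, tested in the same fit, no member was called in either direction, beside 0.0703% of all genes, and 2 of 18 had an unadjusted p below 0.05, mt-Co1 and mt-Co3, beside 13.1% of all genes. DESeq2 and limma-voom called none either. The median log2 fold change of the members was -0.01, with 8 of 18 positive. mt-Co1 had 11644, 13569, 8838, 10426 and 6182 CPM in knockouts and 6820 to 8507 in controls, with a median of 7245. Knockouts 1 to 4 were above all controls and knockout 5 was below them (log2 0.41 ± 0.15, edgeR adjusted p = 0.228). Without knockout 5 mt-Co1 was called (edgeR log2 0.54, adjusted p = 0.0334), but so were 198 genes higher and 134 lower of 14344, against 3 and 7 with it. Of all genes 1.38% were then called higher, and of the 18 members 1.

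mt-Cytb had 5588, 5343, 3675, 4085 and 2773 CPM in male knockouts and 3102 to 3712 in controls (log2 0.26 ± 0.15, adjusted p = 0.46). mt-Nd5 had 1967, 2054, 1572, 1578 and 1134 CPM and controls 1209 to 1510 (0.27 ± 0.14, 0.421), and mt-Nd4 a log2 fold change of 0.32 ± 0.16 (0.398). Knockout 5 was again the lowest. mt-Nd2 had 0.01 ± 0.17 (0.982), and the rRNAs -0.10 ± 0.31 for mt-Rnr1 and -0.10 ± 0.22 for mt-Rnr2. Of the 18 members 10 had values below 0, none called: 4 of the 9 with a nuclear copy, among them mt-Co3 at -0.44 ± 0.18 (0.31) and mt-Atp6 at -0.27 ± 0.35 (0.777; 0.03 with the copies' counts added), and 6 without one. Among the tRNAs, mt-Tt was at -0.40 ± 0.20 (0.409), mt-Tw at -0.28 ± 0.29 (0.712), mt-Tq at -0.02 ± 0.60 (0.994) and mt-Tp at 0.02 ± 0.35 (0.989).

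The difference between the female and the male knockout effect was tested as an interaction. No member was called, beside 0.0141% of all genes, although 11 of 18 had an unadjusted p below 0.05, beside 8.87% of all genes, and the median difference was 0.55 on the log2 scale. The smallest adjusted p-values were those of mt-Co3 (difference 1.04 ± 0.24, edgeR adjusted p = 0.276), mt-Tt (1.12 ± 0.28, 0.285) and mt-Atp6 (1.70 ± 0.45, 0.324). For the well-counted genes the difference was 0.31 ± 0.21 for mt-Co1 (0.698), 0.47 ± 0.21 for mt-Cytb (0.53) and 0.58 ± 0.20 for mt-Nd5 (0.407). DESeq2 called mt-Co3 alone (0.0238). The calls in female and not in male adipocytes are thus not shown to be a difference between the sexes.

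In male SVC, fitted alone, none of the 15 members that passed the filter was called, beside 0% of 16404 genes. The median log2 fold change was 0.36 with 12 of 15 positive, and no member had an unadjusted p below 0.05, against 412 (2.51%) of all genes. DESeq2 called no member, and 8 higher and 68 lower over all genes. mt-Co1 had 7016, 7737, 8069 and 4747 CPM in knockouts and 5267, 5310 and 5772 in controls (log2 0.36 ± 0.27, edgeR adjusted p = 0.972). mt-Cytb had 2082, 1985, 2283 and 1107 CPM and controls 1473, 1556 and 1238 (0.43 ± 0.27, 0.972). Knockouts 1 to 3 were above all controls and knockout 4 below them, for both genes. Markers of sperm and epididymis, tissue next to the epididymal depot, were at 1877 CPM in SVC knockout 4 and at 1654 CPM in SVC control 1, and at 4.10 to 123.7 CPM in the others. Without knockout 4 the median log2 fold change was 0.51, without control 1 it was 0.28, and no member was called in either case. Adipocyte markers were also higher in the SVC of knockouts, at 2003 to 2664 CPM summed against 1089 to 1785 CPM in controls, without overlap. All 12 had a positive log2 fold change, with a median of 1.10, and none was called. Adipocytes held more mitochondrial transcripts than SVC in the comparison of fractions, and the part of these markers in the SVC values was not tested.

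Female control adipocytes had more mitochondrial transcripts than male ones. Higher in females were 13 of 18 members, beside 23.7% of all genes, and none was lower. The median log2 fold change was 1.02, against 0.05 over all genes, and 11 of 18 had all female libraries above all male ones, beside 9.48% of all genes. mt-Co1 had 17033 to 22587 CPM in females (median 20302) and 6820 to 8507 in males (median 7245), a log2 fold change of 1.41 ± 0.14 (edgeR adjusted p = 9.73e-08). Among the other protein genes with many counts, mt-Cytb was at 1.35 ± 0.15 (2.05e-07), mt-Nd4 at 1.27 ± 0.15, mt-Nd2 at 1.14 ± 0.16, mt-Nd1 at 0.98 ± 0.12 and mt-Nd5 at 0.85 ± 0.14, all without overlap. The largest fold was that of a sparse gene, mt-Nd3, with 0.559 to 1.13 CPM in females and 0.0904 to 0.497 CPM in males, on 106 and 34 counts in all (log2 1.64 ± 0.33, edgeR adjusted p = 0.000416). mt-Tw (1.12 ± 0.26), mt-Co2 (1.11 ± 0.22), mt-Co3 (1.03 ± 0.16) and mt-Atp6 (edgeR adjusted p = 0.0119) were called as well, and these had no overlap either. mt-Tp (0.95 ± 0.32) and mt-Nd6 (0.89 ± 0.30) were called with overlapping groups.

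Not called between the sexes were mt-Rnr1 (log2 0.64 ± 0.29, edgeR adjusted p = 0.0817), mt-Rnr2 (0.49 ± 0.21, 0.063), mt-Nd4l (0.24 ± 0.53, 0.739), mt-Tq (1.05 ± 0.53, 0.11) and mt-Tt (0.04 ± 0.19, 0.886). Nuclear genes for the respiratory chain were also called higher in females: 20 of 36 of complex I (median log2 0.37), 5 of 9 of complex III (0.43), 10 of 14 of complex IV (0.54) and 7 of 16 of complex V (0.30), with none lower. Examples were Cox7b (0.89 ± 0.13) and Ndufb3 (0.88 ± 0.17). Of 10 factors of mitochondrial transcription 6 were higher, led by Mterf3 (1.00 ± 0.11), which binds mitochondrial DNA near the promoters, Tfam (0.37 ± 0.08) and Tfb1m (0.51 ± 0.11), an rRNA methyltransferase. Of 26 genes of RNA processing and stability 7 were higher and 3 lower, of 14 of replication 5 and 2, and of 12 regulators of mitochondrial biogenesis 0 and 3. For all these lists, the share of all genes tested was 23.7% called higher in females and 20.1% called lower.

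Marker lists differed between the sexes as well. Brown and beige markers were higher in 8 of 14 and lower in 1, and preadipocyte markers higher in 6 of 12, beside 23.7% of all genes called higher. Macrophage markers were lower in 9 of 16 and higher in 1, beside 20.1% of all genes called lower. Skeletal muscle markers summed to 77.9 to 273.5 CPM in females and 33.0 to 72.0 CPM in males, without overlap. Of the 5 muscle genes tested 2 were higher, Acta1 and Tnnc2, and 1 lower, Actn3, which in a list of 5 is not far from the shares of all genes. Acta1, an actin, made up most of that sum, while Ckm, the muscle creatine kinase, was at 0.0470 to 0.973 CPM in females and at 0 in males. Of 5 transcripts of nuclear genes listed for RNA quality, Malat1 (1.25 ± 0.30), Neat1 (1.23 ± 0.19) and Meg3 (3.74 ± 0.68) were higher, and Lars2 was lower (-0.73 ± 0.23). The other, Xist, was higher too, but it marks females and tells nothing of RNA quality in this comparison. Malat1 and Neat1, which stay in the nucleus, together had 143.7 to 353.1 CPM in females and 72.4 to 147.9 CPM in males. The part of these lists in the mitochondrial difference was not tested. Since the labels name the epididymal depot for females too, differences of depot and of sex cannot be told apart. This comparison shares the female controls with the female knockout comparison, and the male controls with the male one.

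Between fractions, male control adipocytes had 14 of 17 members higher than SVC, beside 32.9% of all genes, and none lower. One of the 14, mt-Nd4l, had only 2 counts in the SVC controls and passed the filter through the adipocytes; without it 13 of 16 were higher, with a median log2 fold change of 1.71. With it the median was 1.79, while the median over all genes was -0.29. In male knockouts 13 of 17 were higher, beside 31.9%, with a median of 1.47. With the paired numbers of the column names as a block, 10 of 16 were called in knockouts. No library overlapped for 12 of 17 members in controls, beside 22.1% of all genes, and for 10 of 17 in knockouts, beside 18.6%. mt-Cytb had 3102 to 3712 CPM in control adipocytes and 1238 to 1556 in SVC (log2 1.85 ± 0.26, edgeR adjusted p = 4.92e-06), mt-Nd2 1110 to 1714 and 494.3 to 649.8 (1.79 ± 0.23, 2.1e-06), and mt-Co1 6820 to 8507 and 5267 to 5772 (0.98 ± 0.24, 0.00146). With scaling by library totals alone mt-Co1 was at 0.44 (0.0621) and no longer called.

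Neither rRNA was called between the fractions. mt-Rnr2 had 685.2 to 841.5 CPM in control adipocytes and 806.2, 1092 and 1822 CPM in SVC (log2 -0.20 ± 0.29, edgeR adjusted p = 0.549), and with library totals alone it was called lower in adipocytes (-0.69, 0.0201). mt-Rnr1 was at 0.71 ± 0.36 (0.0779). The fold of mt-Nd4l is drawn in the figure of fold changes but not printed, because the SVC controls held only 2 counts. mt-Atp8 had none there, where 3 counts, the floor used for a count of 0, are 0.135 to 0.146 CPM a library. Nuclear respiratory genes were higher in adipocytes too: 35 of 36 of complex I (1 was lower, median log2 2.55), all 9 of complex III (2.34), 13 of 14 of complex IV (2.55), all 16 of complex V (2.08) and 76 of 77 proteins of the mitochondrial ribosome (2.09). Whether these lists and the mitochondrial genes differ was not tested. Scaling matters in this comparison, because with library totals alone the median of all genes fell by 0.56 in controls and by 0.45 in knockouts, the calls over all genes went from 42.8% higher to 28.3% in controls and from 41.7% to 29.2% in knockouts, and 12 members were higher and 1 lower in controls and 12 higher in knockouts.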

How the data were processed

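RNA from 30 mouse fat libraries was sequenced. The authors deposited raw read counts per gene, whole numbers, and a table of log2 values (regularised logarithms) deposited with them, from -2.36 to 29.3, which served only to check direction. FastQC 0.12.1, STAR 2.7.11a, DESeq2 and build mm39 appear in the submitters' processing notes. No source used here names the counting program, its annotation, its strand setting or its treatment of multi-mapped reads. Library totals were 20484836 to 22209603 counts, so that a count of 0 allows up to 0.135 to 0.146 CPM (3 counts). Unused per-sample columns numbered 0. Groups came from the titles.

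Counts were tested with edgeR 4.0.16 in R 4.3.3: TMM scaling, filterByExpr with a minimum count of 10, robust quasi-likelihood, Benjamini-Hochberg adjustment over all genes tested, and calls below 0.05. The 4 adipocyte groups shared 1 fit, the SVC libraries had their own, and all male libraries were joined for the fractions. CPM is counts scaled to the library total. The SE of a log2 fold change was worked out from the test, as its absolute value divided by the square root of the F statistic. The fitting code was tested on simulated data first. Nuclear copies were found with blastn 2.17.0 at an identity of at least 95% over 100 bases in GENCODE M21 transcripts (GRCm38). No coordinates are given, because that build is not the one of the files.

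The members and lists were chosen with earlier results of these data known. Named genes are all mt- genes and, from each other list, up to 3 called members of smallest p, or else the member of smallest p. Adipoq, Ctnnb1, Xist, Ddx3y, Tfam, Polrmt, Ucp1 and Ckm were added as checks. Replicate numbers in the titles did not pair libraries by the rule that every pair correlate above 0.1. Numbers in the column names did so for male knockout adipocytes and SVC (0.19 to 0.245 over 3 pairs). Tried besides were other scalings, no filter, DESeq2 1.42.0 and limma-voom 3.58.1 in place of edgeR, other sets of libraries, replicate blocks and leaving out each library in turn.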

Additional observations from a re-analysis of the deposited data

Results flagged for a closer look

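In 125 sets of values (members and ratios within a group of 4 to 6 libraries), the highest or lowest library was checked for standing apart by Dixon's test. Chance alone marks about 1 in 20 independent, normally distributed sets, and 11 were found. The sets here overlap and some rest on few counts, so the number found cannot be set against that rate.

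In female knockouts, replicate 3 had the highest mt-Rnr2, 3064 CPM, the highest rRNA share of all counts, 0.426%, and the lowest mt-Tw, 2.80 CPM. Replicate 4 had the highest mt-Atp6, 17.9 CPM, and the lowest mt-Co1 part of mitochondrial counts, 40.8%. Replicate 1 had the highest mt-Tq, 2.06 CPM.

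Among male adipocytes, control 6 had the highest mt-Tp, 1.36 CPM, and the highest mt-Nd6, 17.0 counts for every 1000 of mt-Nd5. Both genes lie on the light-strand transcript. Knockout 4 had the lowest mt-Tp, 0.318 CPM, on 7 counts.

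Among SVC knockouts, replicate 4 had the lowest mt-Nd3, 0.0933 CPM on 2 counts, and replicate 1 the lowest mt-Co1 part, 47.3%.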

How the results depend on the processing

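The 7 calls in female adipocytes became 2 (mt-Nd5 and mt-Co1) with the female libraries fitted alone. Why the other calls were lost there was not tested. When 1 library was left out the calls numbered 4 to 8, with 4 without control 3, control 4 or knockout 1. Other settings gave 5 to 10. In male adipocytes leaving out 1 library gave 0 to 1 calls, and in the difference between sexes DESeq2 gave 1. In SVC 0 remained under all settings. Left-out libraries gave 11 to 15 calls between sexes and 13 to 15 in both fraction comparisons. With protein genes alone the SVC control share was 0.997%, from 1.15%. No called member changed sign under any alternative. Uncalled ones near 0 did, as mt-Nd2 in male adipocytes in 6 of 33.

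With the replicate numbers of the titles as a block, 5 members were called in female adipocytes (mt-Atp6 lost, edgeR adjusted p = 0.13, and mt-Nd4 lost, 0.0684). With that block 0 were called in male adipocytes, SVC and the difference, and 15 between sexes. Libraries blocked by title share only a number. Between fractions the block was the number in the column names, for libraries with a match in both fractions. There 13 of 16 were called in controls. Over all genes, edgeR called 46 higher and 21 lower in female knockouts, DESeq2 100 and 106, library totals alone 36 and 53, the female libraries alone 22 and 4. Leaving out 1 library gave 29 to 63 higher and 3 to 35 lower there, with 3 lower without female control 3 or knockout 1. In males edgeR called 3 and 7, DESeq2 64 and 95, upper-quartile scaling 1 and 8, the male libraries alone 1 and 5, the block 0 and 4. Leaving out male knockout 5 gave 198 and 134, and leaving out male control 2 gave 34 and 21. In SVC it called 0 and 0 and DESeq2 8 and 68, and in the difference 1 and 1 and DESeq2 16 and 7. Depth limits mt-Atp8, mt-Nd3, mt-Tq and mt-Nd4l, with 70 to 440 counts over all libraries.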

Other observations

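The rRNAs are cut from 1 precursor, and their ratio was lower in SVC controls than in any adipocyte control of males. mt-Rnr1 counts were 45.9 ± 4.86% of those of mt-Rnr2 in male control adipocytes (SD, n = 6; 40.0% to 52.5%) and 25.5 ± 2.66% in SVC controls (n = 3; 23.0% to 28.3%), without overlap. In knockouts the values were 44.0 ± 9.04% in adipocytes (n = 5; 28.9% to 52.8%) and 31.5 ± 1.40% in SVC (n = 4; 29.9% to 33.3%), which overlapped. Female adipocytes stood at 40.4 ± 7.68% in knockouts and 50.8 ± 13.3% in controls (n = 6 each). No test was made of this ratio, which was looked at after the fits.

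The tRNA mt-Tw, at the end of mt-Nd2, had 2.63 ± 0.331 counts for every 1000 of mt-Nd2 in female controls and 2.26 ± 0.922 in female knockouts (SD, n = 6 each), 2.63 ± 0.519 in male controls and 2.13 ± 0.457 in male knockouts, 1.95 ± 0.283 in SVC controls and 1.47 ± 0.147 in SVC knockouts. Female knockout 3 had 0.524, the lowest of all 30 libraries.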
